A study of Arabidopsis thaliana with 12 samples.

Results

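PWD (AT5G26570) and DPE1 (AT5G64860) encode enzymes that take starch apart inside the chloroplast. They were chosen by name, each as the 1 probe set that the array annotation gives to that single gene, so 2 of the 13286 genes with a probe set of their own are described. The annotation gives the symbol PWD to 2 probe sets, and the gene identifier showed that the other one belongs to AT4G24450, which RefSeq lists under the same symbol with the synonyms GWD3 and ATGWD2. That probe set was kept apart from PWD.

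Expression was measured on 12 Affymetrix ATH1 arrays in the aerial rosettes of wild-type Columbia seedlings of Arabidopsis thaliana, 15 days old, which had grown under cycles of 12 h white light and 12 h darkness and were then moved to constant darkness. The night pulse group received 1 h of white light in the middle of the night, and the day pulse group received the same 1 h in the middle of the subjective day, the part of the cycle that would have been light. The night control and day control groups were sampled without a pulse. Time of day and hours already spent in constant darkness cannot be told apart when night is compared with subjective day. Each group had 3 arrays, the labels do not say whether these came from separate plants, and p-values therefore measure the spread between arrays, which may be technical. The labels write the night as CT 6 and the subjective day as CT 18, hours that conflict with the usual count from subjective dawn, and groups here follow the titles.

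Leaf starch is made in the light and broken down in the dark. Glucan, water dikinases attach phosphate to the surface of the starch granule, which loosens its packed glucan chains for the enzymes that follow. PWD adds phosphate after the first dikinase, GWD1, has acted. Beta-amylases then release maltose, and the shortest chains they leave are joined into longer ones by the disproportionating enzyme DPE1, which also releases glucose. Many transcripts of starch breakdown follow the circadian clock in leaves.

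Median signals of single arrays lay between 23.5 and 63.5 as deposited, so signals were quantile normalized across arrays and are given on a linear scale as mean ± SD over 3 arrays. Changes are limma estimates ± SE on the log2 scale, and a call means an adjusted p (Benjamini-Hochberg, over all 13647 probe sets tested) under 0.05. In whole tissue, fewer cells that express a gene and less of its RNA per cell cannot be told apart. GAPDH control probes near both ends of the transcript give a check on RNA quality, and their 3' to 5' ratio was highest for day pulse replicate 1 (9.29) and day control replicate 2 (8.75), while the remaining arrays had 2.16 to 5.16. Of the leaf markers listed for checking the tissue, 1 had a named probe set, RCA, which activates Rubisco, with group means from 3921 to 7891. Of the root markers 2 had one, and the group means of the root hair gene EXPA7 were 3.32 to 6.54, while those of PYK10, a glucosidase abundant in roots and in the hypocotyl, were 613 to 1506.

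PWD was high at night and low in the subjective day, with or without light. Its normalized signals were 515, 609 and 666 on the night controls and 148, 107 and 148 on the day controls. They were 658, 591 and 575 after the night pulse, and 181, 256 and 302 after the day pulse. All 6 night arrays lay above all 6 subjective-day arrays, and within the subjective day the 3 pulsed arrays lay above the 3 controls. Groups without overlap were common, at 60.4% of probe sets between controls, 46.0% between pulsed groups and 48.0% for the day pulse. The share for 6 against 6 arrays was not counted. From high to low the group means were 608 ± 44.1 for the night pulse, 597 ± 76.4 for the night control, 246 ± 60.9 for the day pulse and 134 ± 23.9 for the day control, and of neighbours in this order only the first 2 had overlapping arrays.

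DPE1 stood out in 1 group only, the day pulse, where it was low. Its normalized signals were 173, 184 and 187 on the night controls, 201, 163 and 211 after the night pulse, and 152, 259 and 234 on the day controls. After the day pulse they were 81.3, 116 and 110. The 3 day pulse arrays lay below the other 9, among which the groups overlapped. The share of probe sets that part 3 arrays from 9 in this way was not counted. From high to low the means were 215 ± 56.0 for the day control, 191 ± 25.5 for the night pulse, 181 ± 7.53 for the night control and 102 ± 18.4 for the day pulse.

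**Figure D1:**
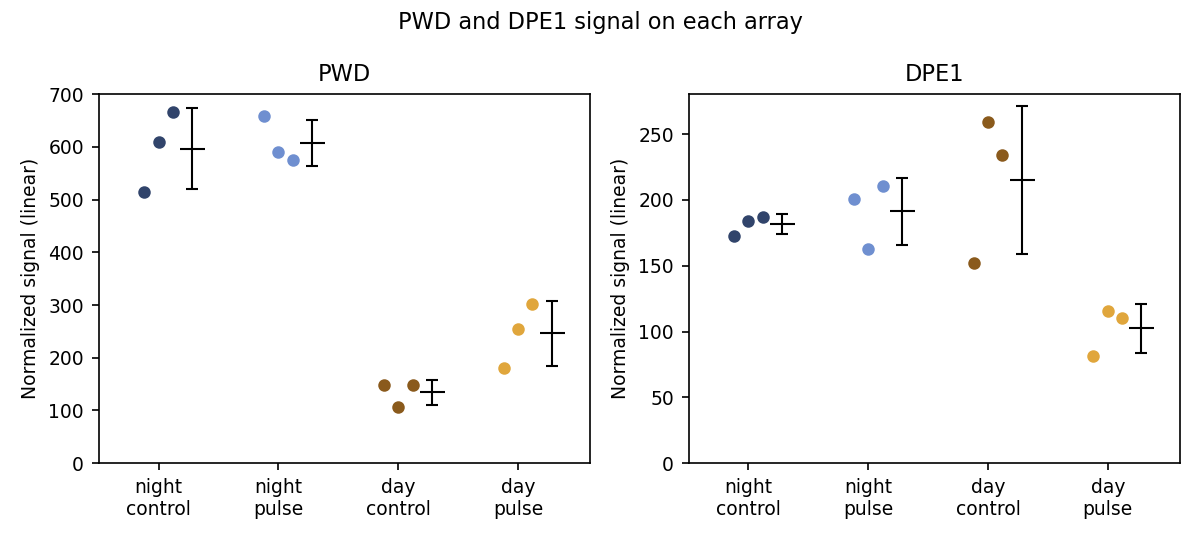
Normalized signal (linear scale) of PWD and DPE1 on each of the 12 arrays by group; points are arrays in replicate order, the dash and bar are the mean ± SD of 3 arrays. PWD is at 597 ± 76.4 in the night controls and 134 ± 23.9 in the day controls, and DPE1 is lowest in the day pulse group at 102 ± 18.4.

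The first comparison asked what a light pulse at night did to both genes. No change was called for PWD, at 0.03 ± 0.21 (adjusted p = 0.957, 95% interval -0.42 to 0.48), or for DPE1, at 0.07 ± 0.22 (adjusted p = 0.902, 95% interval -0.40 to 0.54). Pulsed and control arrays overlapped for both, whereas they did not for 37.1% of probe sets. The intervals correspond to between 0.75-fold and 1.39-fold for PWD and between 0.757-fold and 1.45-fold for DPE1, so changes within those bounds were not measurable with 3 arrays a group. Of all probe sets tested, 12.9% were called after the night pulse.

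The second comparison asked the same of a pulse in the subjective day, where both genes were called and in opposite directions. PWD rose by 0.85 ± 0.21 (adjusted p = 0.00483), a 1.83-fold ratio of mean signals. DPE1 fell by 1.04 ± 0.22 (adjusted p = 0.00178). Being called was common in this comparison: 42.7% of all probe sets were, 21.0% higher and 21.8% lower, and 48.0% had pulsed and control arrays with no overlap. Of all probe sets, 34.7% had a larger absolute change than PWD and 27.4% a larger one than DPE1.

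The scaling of the arrays bore on the rise of PWD. On the signals as deposited, PWD read 145, 73.2 and 124 on the day controls and 95.4, 270 and 331 after the pulse, so the groups overlapped before normalization, with the low pulsed value on the array whose median signal was 23.5. Without normalization its change was 0.89 (adjusted p = 0.118), and with arrays centred on their medians it was 0.55 (adjusted p = 0.0602). Median centring moved the median change of all probe sets to -0.25, and relative to that median PWD stood 0.81 higher. DPE1 had a decrease of 1.00 on unnormalized signals that missed the threshold (adjusted p = 0.0562), while on median-centred signals it fell by 1.33 (adjusted p = 0.000387).

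The 2 arrays with a high GAPDH ratio held the lowest PWD signal of each subjective-day group, and for DPE1 the lowest of the pulsed and the highest of the control arrays. Without both, PWD changed by 0.90 (adjusted p = 0.00161) and DPE1 by -0.73 (adjusted p = 0.0201), so both kept their call and direction. With 1 array left out at a time, the change ran from 0.69 to 1.06 for PWD and from -1.26 to -0.88 for DPE1.

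**Figure D2:**
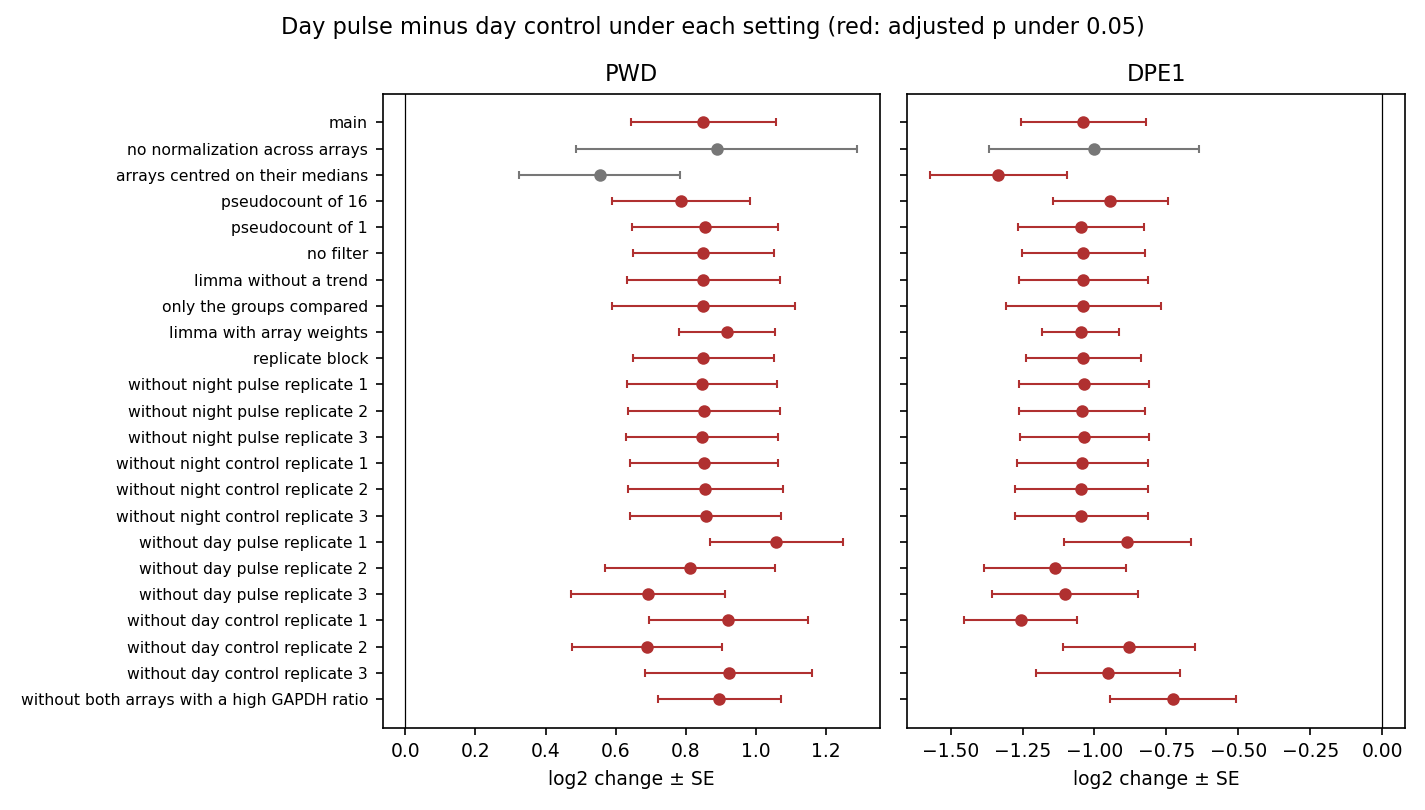
Change in PWD and DPE1 from day control to day pulse (log2, ± SE) under the main and each alternative setting; red marks an adjusted p under 0.05. PWD stays above 0 and DPE1 below 0 in every setting shown, and the call is lost without normalization for both and with median centring for PWD.

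Whether a pulse acted differently at night and in the subjective day was tested on the difference of both responses, night minus day, for which 12.7% of all probe sets were called. For DPE1 it was 1.11 ± 0.31 (adjusted p = 0.0323, 95% interval 0.44 to 1.77). That call lay near the threshold and did not hold with fewer arrays. Leaving out any night control took the call away (adjusted p = 0.0724, 0.0653 and 0.0656 for replicates 1 to 3). The difference was then 1.08, 1.13 and 1.14, with an SE of 0.34, 0.35 and 0.35, so it changed little while its precision fell. The call was also lost without replicate 1 (0.0674) or 3 (0.0812) of the night pulse or replicate 2 (0.0776) or 3 (0.0834) of the day controls. It was also lost without both high-GAPDH arrays (0.0834) and without normalization (0.277), while the difference itself stayed between 0.80 and 1.47. For PWD it was -0.82 ± 0.29 and was not called (adjusted p = 0.086, 95% interval -1.45 to -0.19). PWD was called without day pulse replicate 1 (adjusted p = 0.0162), without both high-GAPDH arrays (0.0252) and with array weights (0.00201), and with median centring its difference was -0.32 (0.509). The night and day responses of PWD were therefore not shown to differ.

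The largest contrast of PWD was between the controls. Its night control signal was 4.45-fold that of the day control, a log2 difference of 2.14 ± 0.21 (adjusted p = 3.08e-06), where 48.4% of all probe sets were called, 25.7% higher and 22.6% lower at night, and 60.4% had groups that did not overlap. Only 6.40% of probe sets had a larger absolute difference, and the call held in all 22 alternatives, with values from 1.77 to 2.50. DPE1 differed between the controls by -0.21 ± 0.22 (adjusted p = 0.451, 95% interval -0.68 to 0.26), a value that turned to 0.19 without normalization (0.709) and was called with array weights at -0.33 (0.0227).

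The pulsed groups were compared with each other to see how far night and subjective day still differed after light. PWD was 2.47-fold higher after the night pulse than after the day pulse (1.32 ± 0.21, adjusted p = 0.00031), and DPE1 was 1.87-fold higher (0.90 ± 0.22, adjusted p = 0.00625). Both calls held in all 22 alternatives, and 34.9% of all probe sets were called. Pulsed arrays from the night did not overlap with those from the subjective day for either gene, as was so for 46.0% of probe sets. This comparison shares its arrays with the pulse comparisons above and adds no separate measurement of them. The leaf marker RCA was also higher in the night controls, at 7714 ± 616, than in the day controls, at 3921 ± 1121 (1.02 ± 0.19, adjusted p = 0.000643). Like PWD it rose after the day pulse, to 6528 ± 421 (0.78 ± 0.19, adjusted p = 0.00485), and had no call after the night pulse, at 7891 ± 752. As for PWD, the responses of RCA at night and in the subjective day were not shown to differ (-0.75 ± 0.27, limma adjusted p = 0.0873). Median centring removed both RCA calls (adjusted p = 0.232 between controls and 0.0598 for the day pulse), and without day control replicate 2 its day pulse rise was 0.51. The root marker PYK10 was at 1506 ± 432 in the night controls and 870 ± 37.6 in the day controls. This difference of 0.75 ± 0.26 was called (limma adjusted p = 0.0289), though not in 6 of 22 alternatives. PYK10 was at 1500 ± 286 in the night pulse group and 613 ± 198 in the day pulse group. That difference, 1.33 ± 0.26 (limma adjusted p = 0.00157), was called in all 22 alternatives and was about as large as that of PWD. The part of RCA or PYK10 in the differences of PWD and DPE1 was not tested. The other named root marker, EXPA7, was at 6.54 or less in every group.

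Changes of both genes were then set against each other within each array, which removes any common scaling of an array. The log2 PWD signal less the log2 DPE1 signal was 1.70 ± 0.13 in the night controls and 1.66 ± 0.21 after the night pulse, with overlapping arrays. It was -0.65 ± 0.61 in the day controls and 1.24 ± 0.18 after the day pulse, and there the arrays did not overlap. The day pulse thus moved PWD 1.89 log2 further up than DPE1 (two-sided exact permutation test, p = 0.1, the smallest that 3 arrays against 3 allow), from 1.57 to 2.18 across 17 alternatives. On these same arrays PWD had risen and DPE1 had fallen, each without overlap. That fixed the p of this test in advance, so it adds no separate measurement of the opposite directions. Between the controls, PWD's night-minus-day difference exceeded that of DPE1 by 2.35 (two-sided exact permutation test, p = 0.1, again the smallest possible). The same excess was -0.04 for the night pulse (exact p = 0.9) and 0.43 for night against day pulse (exact p = 0.2). Over the 12 arrays the log2 signals of both genes had a Pearson r of 0.10, given as a description of arrays that share their groups.

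**Figure D3:**
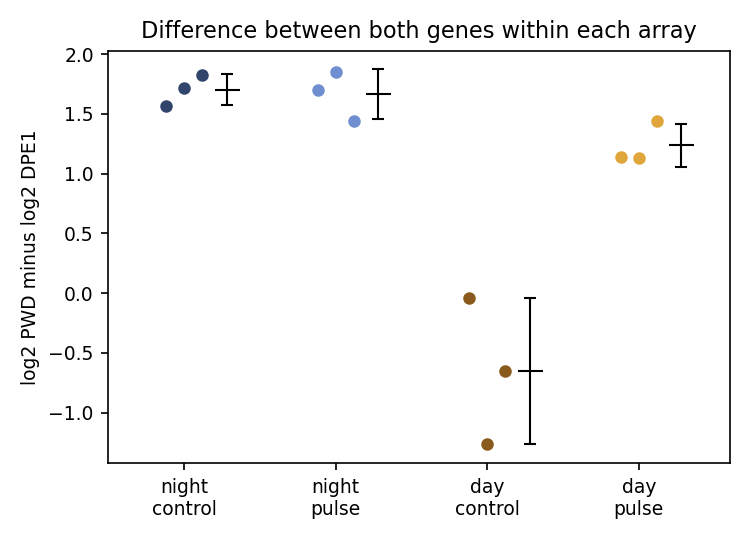
Difference between the log2 signals of PWD and DPE1 on each array, by group; points are arrays and the dash and bar the mean ± SD of 3. Only differences between groups can be read, since signals of separate probe sets are not comparable in level. The 3 day controls lie below the other 9 arrays.

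Other starch breakdown genes were few in the named part of the array. A named probe set was found for 5 of 30 genes listed, and 4 could be tested, PWD, DPE1, AT4G24450 and AT3G55760; the alpha-amylase gene AMY1, with group means of 12.7 to 20.4, was too dim to be tested. None of the 4 was called by limma after the night pulse, although AT4G24450 and AT3G55760 had an unadjusted p under 0.05. After the day pulse PWD and AT3G55760 rose and DPE1 fell, where 42.7% of all probe sets were called. The median of the 4, PWD and DPE1 included, was 0.50 against -0.04 over all probe sets. Of the genes other than PWD and DPE1, AT3G55760 alone was called. Between night and day controls 1 was higher, 1 was lower and 2 were not called, a share near the 48.4% called among all probe sets, with a median of -0.13 against 0.02. Between the pulsed groups all 4 were called, where 34.9% of all probe sets were. PWD and DPE1 were higher after the night pulse than after the day pulse. AT3G55760, at -1.20 ± 0.30 (limma adjusted p = 0.00681), and AT4G24450, at -0.59 ± 0.20 (0.0383), were lower. The AT4G24450 call was lost in 12 of 22 alternatives and that of AT3G55760 in 1.

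AT4G24450, the gene that shares the symbol PWD and encodes a related dikinase not needed for leaf starch breakdown, differed between the controls in the opposite direction to PWD. Its signals were 40.8 ± 1.80 in the night controls and 81.4 ± 3.27 in the day controls, a log2 difference of -0.96 ± 0.20 (adjusted p = 0.00167) that was -0.33 without normalization (adjusted p = 0.512). The night pulse gave it 59.7 ± 7.49 and the day pulse 92.4 ± 21.9, neither of which was called against its control, at 0.52 ± 0.20 (adjusted p = 0.127) and 0.15 ± 0.20 (adjusted p = 0.575). AT3G55760, a locus with no name in the tables used here, stood on the list from general knowledge of starch metabolism and from no table. It was at 25.6 ± 5.60 in the night controls and 26.2 ± 3.87 in the day controls, near the lowest mean signal tested (21.75). It rose to 102 ± 28.7 after the day pulse, by 1.85 ± 0.30 (adjusted p = 0.00022), or by 1.45 with a pseudocount of 16. After the night pulse it had 43.7 ± 15.4, a change of 0.70 ± 0.30 without a call (adjusted p = 0.158). Its night response less its day response, -1.15 ± 0.42, was not called (limma adjusted p = 0.0898), so a response limited to the subjective day was not shown.

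Genes of starch synthesis gave a point of comparison from the opposite side of the pathway. Named probe sets covered 6 of 20 listed, and all 6 were tested. None was called by limma after the night pulse, where 2 had an unadjusted p under 0.05 and 12.9% of all probe sets were called. After the day pulse 2 rose, against 21.0% of all probe sets called higher, too few genes to set them apart from the rest of the array. SBE2.2 (AT5G03650), a starch branching enzyme, rose from 129 ± 36.6 to 218 ± 20.2, by 0.78 ± 0.22 (adjusted p = 0.0102), a call that neither the unnormalized (adjusted p = 0.0837) nor the median-centred signals gave (0.0967). APL3 (AT4G39210), a large subunit of ADP-glucose pyrophosphorylase, the enzyme that makes the sugar donor for starch, had 10.3 ± 7.75 in the day controls and 33.4 ± 15.5 after the pulse, a rise of at least 1.53-fold (adjusted p = 0.0211). The bound sets the control at 21.75, the lowest mean signal tested, and the arrays of the groups overlapped. Its call needed replicates 2 (adjusted p = 0.0669 without it) and 3 (0.0815) of the day pulse and replicate 3 of the day controls (0.0878), and was lost with only the groups compared (0.0949). After the night pulse SBE2.2 changed by 0.66 ± 0.22 (limma adjusted p = 0.0654) and APL3 by 1.56 ± 0.53 (0.0745). Their night responses less day responses were -0.13 (limma adjusted p = 0.828) and -0.12 (0.937). A response limited to the subjective day was therefore not shown for either gene. The group means of APL4, another large subunit, were 18.8 to 37.2, and those of AT5G39790, AT1G27070 and AT5G03420, unnamed loci listed on the same basis as AT3G55760, were 37.2 to 59.6, 31.5 to 52.9 and 96.9 to 122, with no call by either pulse.

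Sucrose is what the products of starch breakdown become in the cytosol, and of 7 sucrose synthesis genes listed 1 was named and tested. SPS4F (AT4G10120), a sucrose phosphate synthase, had a signal of 541 ± 97.4 in the night controls and 118 ± 17.9 in the day controls. Between these controls its log2 difference was 2.18 ± 0.20, beside 2.14 ± 0.21 for PWD. SPS4F rose to 378 ± 55.1 after the day pulse, by 1.67 ± 0.20 (adjusted p = 2.03e-05), and to 876 ± 166 after the night pulse, by 0.69 ± 0.20 (adjusted p = 0.0367). The night call did not survive leaving out replicate 1 (adjusted p = 0.162) or 3 (0.0747) of the night pulse, 1 (0.0901) or 3 (0.171) of the night controls or 3 (0.05) of the day controls, nor the fits without normalization (0.156) or without a trend in limma (0.0547).

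**Figure D4:**
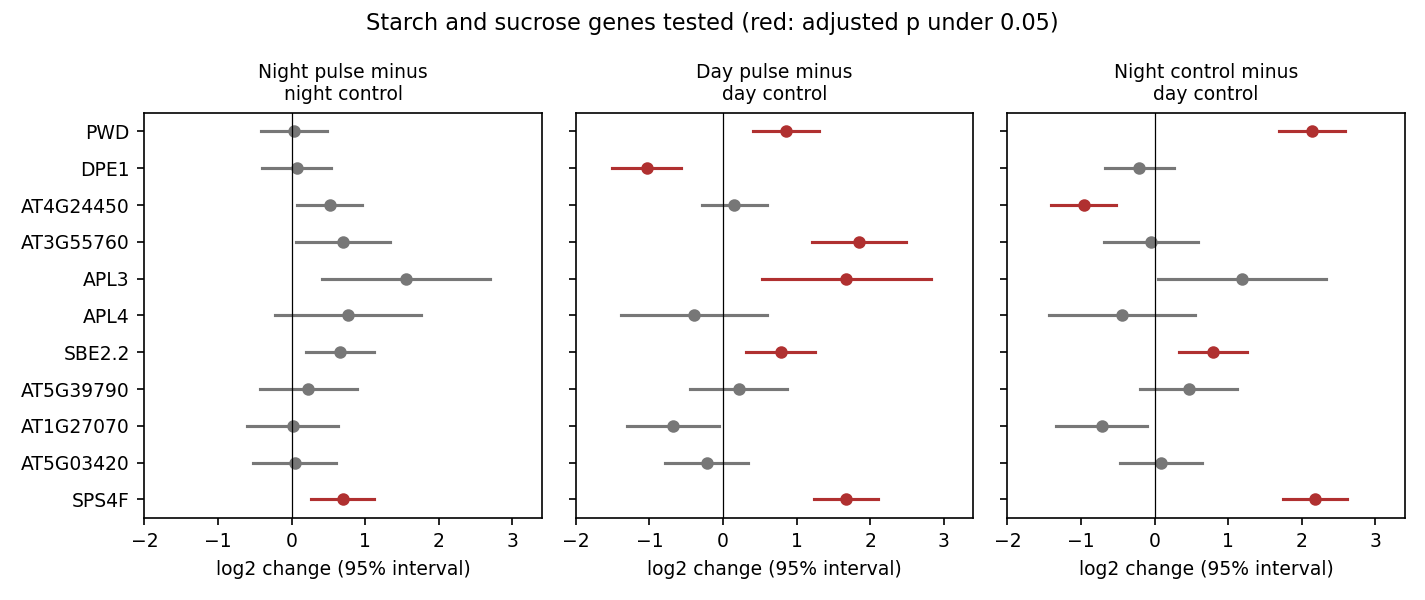
log2 change with 95% interval for the 11 starch and sucrose genes tested, for each pulse against its control and for night against day controls; red marks an adjusted p under 0.05. PWD and SPS4F lie above 2 in the control comparison, and DPE1 is the only gene of the 11 called lower after the day pulse.

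The genes most like PWD and DPE1 were taken by Pearson correlation of log2 signals over the 12 arrays, among 7330 other tested probe sets that name 1 gene. For PWD these were AT1G01970, AT5G28500, AT2G43560, AT1G44920 and AT1G49750, with r from 0.982 to 0.984. All 5 had their lowest mean in the day controls and their next lowest after the day pulse, as for AT1G49750 with 243 ± 14.3 and 510 ± 39.1 against 1577 ± 227 in the night controls. For DPE1 they were FOLB2 (AT5G62980), which encodes an aldolase of folate synthesis, AT3G05190, AT5G46390, AT1G76405 and AT4G17610, with r from 0.927 to 0.962. FOLB2 had means of 179 ± 65.1 in the day controls and 61.6 ± 18.7 after the day pulse, and all 5 were lowest after the day pulse. Genes chosen by correlation on these arrays share the group pattern of PWD or DPE1 through that choice, so the likeness is a description only. Which genes came first depended on the settings: over 17 of them, a set of alternatives chosen after seeing the data, between 1 and 5 of the PWD neighbours and between 0 and 5 of the DPE1 neighbours were the same, with 0 for DPE1 when day pulse replicate 1 was left out, alone or with day control replicate 2, and 1 for PWD with median centring. PWD kept 2 without day pulse replicate 1 or day control replicate 3 and 3 without day pulse replicate 3 or day control replicate 1 or 2. DPE1 kept 3 without night pulse replicate 2, day pulse replicate 3 or day control replicate 2 or 3.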

How the data were processed

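The deposited values are linear intensities, 1 for each probe set on each array. The labels name MAS5 as a tool, per the submitters' processing notes, with no settings. Of 22746 probe sets that are not controls, 13513 name 1 gene in the annotation, 503 name several and 8730 are not listed; genes were matched to the TAIR10.1 RefSeq table by gene identifier. Positions and sequences are not given here. Signals were raised by 2, taken to log2 and quantile normalized, and probe sets with a mean above the 40th percentile were kept (13647). All groups entered 1 two-sided fit in limma 3.58.1 (R 4.3.3), with lmFit and trended eBayes on 8 residual degrees of freedom, and the code was tested on simulated data. The number of arrays limits the precision. No 2 arrays held identical values. Alternatives were other scalings, pseudocounts of 16 and 1, no filter, no trend, fewer groups, array weights, a replicate block and leaving out arrays. The members, lists and tests were chosen with earlier results of these data known. Genes were named by rule: both members, every listed starch or sucrose gene with a named probe set, and the 5 most correlated genes of each member. A fold is "at least" where a mean lay under 21.75.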

Additional observations from a re-analysis of the deposited data

Results flagged for a closer look

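For 2 of the 11 starch and sucrose genes tested, the difference between the night and the subjective-day response to a pulse was called. Of all probe sets 12.7% were called, and 11 genes are too few to set these 2 apart from that share. For DPE1 the night response less the day response was 1.11 log2, with 0.07 at night and -1.04 in the subjective day. The DPE1 call was lost in 9 of 21 alternatives, with a limma adjusted p between 0.000436 and 0.277. For SPS4F (AT4G10120) it was -0.98 ± 0.28 (limma adjusted p = 0.0388), with 0.69 at night and 1.67 in the subjective day. The SPS4F call was lost in 11 of 21 alternatives, with the difference between -1.15 and -0.48 and its adjusted p between 0.00421 and 0.452. Groups of 3 arrays are too small for the check on single arrays that stand apart.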

How the results depend on the processing

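For PWD, the difference between the controls and that between the pulsed groups kept direction and call in all 22 alternatives. Its rise after the day pulse was 0.89 without normalization and 0.55 with median centring, without a call in either, and its night response less its day response was called with array weights at -0.96 and without both high-GAPDH arrays at -0.86. With 1 array left out that difference ran from -1.03 to -0.66, called at -1.03 without day pulse replicate 1 and in none of the other 11. The PWD night pulse value, near 0 and never called, was 0.27 without normalization, 0.23 with median centring and -0.046 with array weights, and ran from -0.071 to 0.12 with 1 array left out. For DPE1, expression fell by 1.00 after the day pulse and its night less day response was 1.17 without normalization, neither called, and that response was 0.80 without both high-GAPDH arrays and 0.95 to 1.32 with 1 array left out. The DPE1 control difference was 0.19 without normalization, -0.54 with median centring (limma adjusted p = 0.0712) and -0.33, called, with array weights, and its night pulse value ran from -0.004 to 0.18 with 1 array left out. PWD less DPE1 for the night pulse was 0.10 without normalization and with median centring, and -0.13 to 0.075 with 1 array left out. The cause of these shifts was not tested.

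Without normalization, called probe sets numbered 669 for the night pulse, 3721 for the day pulse and 439 for the difference of both, against 1760, 5833 and 1728. Called starch breakdown genes then numbered 1 for the day pulse and 1 between controls, against 3 and 2 in the main setting. They numbered 2 between pulsed groups and 0 for the difference, against 4 and 1. Array weights, whose estimation stopped before its tolerance was reached, gave 3513 probe sets for the night pulse, 5308 for the difference and 3 starch breakdown genes for the difference. Median centring gave 2728 for the difference. With 1 array left out the counts ran from 1105 (without night control replicate 2) to 2295 for the night pulse, from 1147 (without night control replicate 3) to 2650 (without day control replicate 1) for the difference, and from 0 to 2 starch breakdown genes for the difference. Higher calls made up 49.1% after the day pulse, 57.8% without normalization and 33.9% with median centring, and between the controls 53.2%, 81.1% and 39.2%. The replicate block changed no call of either gene (PWD day pulse 0.85, adjusted p = 0.005 by limma). Deviations from the group means correlated between same-numbered arrays at -0.11 to 0.45, above 0.1 in 8 of 18 pairs. Arrays with different numbers were not compared in this way, so these values cannot settle whether the numbers pair the arrays. The main fit used no pairing. Signals under about 21.75 were too dim to measure a level.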
